A study of Mus musculus with 10 samples.

Results

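To locate the sources and the receivers of FGF and HGF signals in a fibroblast and tumor cell co-culture, 9 genes were followed through all 10 libraries: the ligands Fgf2, Fgf7, Fgf10 and Hgf, the FGF receptors Fgfr1 to Fgfr4, and Met, the receptor of HGF. They were selected by gene name among the 55486 genes of the count table. The libraries came from 5 gels of collagen and basement membrane extract, each kept for 7 days. Normal fibroblasts (NFs) were grown by themselves in gel 1, tumor cells by themselves in gels 2 and 3, and the 2 cell types together in gels 4 and 5. After culture, cells were sorted by color.

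NFs came from mammary glands of mTmG mice aged 8 weeks, a reporter strain whose cells are red (Tomato) until Cre turns them green (GFP). They were divided by surface CD26 into a negative (CD26-) and a positive (CD26+) subset, and the subsets shared each NF gel in equal parts. CD26+ NFs were turned green with an adenovirus carrying Cre and CD26- NFs were not given virus, so subset and virus cannot be told apart. Mice were pooled for the sort. Tumor cells were lines from mice that develop invasive lobular carcinoma, where Cre under the Wap promoter, active in milk-producing epithelium, deletes Cdh1 (WapCre;Cdh1F/F with a further allele). Line 13-MCB-17 was used in gels 2 and 4 and line 10-SJK-221 in gels 3 and 5, so each tumor group held 1 library per line. Gels 4 and 5 gave 3 libraries each (CD26- NFs, CD26+ NFs, tumor cells), whereas NFs alone gave 1 library per subset. Per the study's methods, the gel medium mixed tumor cell and fibroblast media with serum, EGF and insulin.

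Fibroblast growth factors are secreted proteins that bind heparan sulfate and signal through receptor tyrosine kinases of the FGFR family. Fgf7 and Fgf10 are classical mesenchymal ligands that act on the IIIb splice form of FGFR2 in epithelium, and in the mammary gland Fgf10 is needed for the gland to form. Fgf2 acts mainly through IIIc forms, FGFR1 among them. HGF (scatter factor) is secreted by fibroblasts as an inactive precursor and, once cleaved, activates the receptor MET on epithelial cells, which promotes motility and branching. Counts per gene do not separate splice forms and say nothing of secreted or active protein.

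4 members are shown with the sequence around a RefSeq transcription start (GRCm38.p6, 250 bases before to 50 bases after the start, printed 5' to 3' in the direction of the gene). RefSeq windows were matched by symbol for 8 of the 9 members, in 10 windows. Fgf10 and Fgfr2 were the members that fell most in co-cultured NFs, Fgf2 was higher there, and Met was the member higher in tumor cells. Capitals mark letters that match a GC box (GGGCGG) or an AP-1 motif (TGANTCA), on either strand.
Fgf10, chr13:118714449-118714748, + strand: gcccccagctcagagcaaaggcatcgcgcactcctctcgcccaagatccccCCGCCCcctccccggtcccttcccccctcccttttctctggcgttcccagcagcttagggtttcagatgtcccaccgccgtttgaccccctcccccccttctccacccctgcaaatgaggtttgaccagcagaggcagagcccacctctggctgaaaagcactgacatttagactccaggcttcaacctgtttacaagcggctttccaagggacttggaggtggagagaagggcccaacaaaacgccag
Fgfr2, chr7:130266759-130267058, - strand: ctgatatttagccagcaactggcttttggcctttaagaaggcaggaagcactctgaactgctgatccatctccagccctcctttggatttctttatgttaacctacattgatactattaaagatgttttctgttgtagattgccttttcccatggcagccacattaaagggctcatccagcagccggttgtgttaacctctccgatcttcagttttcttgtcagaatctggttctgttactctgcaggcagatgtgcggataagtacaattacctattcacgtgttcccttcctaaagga
Fgf2, chr3:37348403-37348702, + strand: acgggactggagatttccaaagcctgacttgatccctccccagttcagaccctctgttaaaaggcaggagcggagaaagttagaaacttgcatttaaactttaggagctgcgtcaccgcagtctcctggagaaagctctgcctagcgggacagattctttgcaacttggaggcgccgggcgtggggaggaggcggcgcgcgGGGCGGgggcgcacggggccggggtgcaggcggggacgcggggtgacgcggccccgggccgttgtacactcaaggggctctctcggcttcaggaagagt
Met, chr6:17463707-17464006, + strand: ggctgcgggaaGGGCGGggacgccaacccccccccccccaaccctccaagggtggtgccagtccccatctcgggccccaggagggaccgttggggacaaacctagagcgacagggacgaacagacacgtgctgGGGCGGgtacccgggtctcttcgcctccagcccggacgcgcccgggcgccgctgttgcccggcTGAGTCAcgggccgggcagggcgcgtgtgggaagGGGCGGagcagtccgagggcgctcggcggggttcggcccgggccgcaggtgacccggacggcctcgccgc
The Met window was the only one of the 10 with an AP-1 match, which began 54 bases before the start (-54), and it held 3 GC boxes. Of all 32851 RefSeq windows of this length, 7.808% held an AP-1 match and 35.66% a GC box. Fgf10 and Fgf2 held 1 GC box each and the Fgfr2 window none. GC content was 75.67% for Met, 62.67% for Fgf2, 60.67% for Fgf10 and 43.67% for Fgfr2. A TATA box (TATAAA, in 13.62% of windows) matched in none of the 10 windows, and a TEAD motif (GGAATG, in 14.66%) matched in 1, that of Fgfr4. An E-box (CANNTG, in 72.31%, not capitalized) was present 3 times for Fgfr2, 2 times for Fgf10 and 2 times for Met. These matches describe letters, not bound sites.

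Libraries held 14142334 to 18408940 counts, and values are given in counts scaled to the library total (CPM). A count of 0 allows up to 3 counts, which is 0.163 to 0.212 CPM depending on the library, a limit that covers counting error only. Cell types were checked with 8 epithelial and 8 fibroblast markers. Epcam had 0 counts in both NF libraries from the gel without tumor cells and 335 to 432 CPM in the 4 tumor libraries, and Col1a1 had 7882 to 18556 CPM in NFs. Dpp4, which encodes CD26, was low in every library (at most 0.771 CPM) and too low to be tested between subsets, but followed the subset labels, with 4, 12 and 4 counts in CD26+ NFs and 0, 0 and 1 in CD26- NFs (gels 1, 4 and 5). In co-culture, libraries of each cell type held marker transcripts of the other, called carry-over here. Whether they came from cells or RNA of the other type or from expression in the sorted cells was not tested. The epithelial markers summed to 0.807 and 1.12 CPM in NFs alone and to 115 to 317 CPM in co-cultured NFs, with all 8 above 0. The median epithelial marker reached 1.97% (CD26-, gel 4), 2.90% (CD26+, gel 4), 2.02% (CD26-, gel 5) and 5.46% (CD26+, gel 5) of its level in tumor cells of the same gel. Single markers ranged from 1.66% to 9.79%, 2.08% to 12.7%, 0.827% to 9.19% and 2.79% to 17.7% in the same order, each time with Krt19 highest. In co-cultured tumor cells, the median fibroblast marker reached 0.109% (gel 4) and 0.130% (gel 5) of its level in NFs. Summed fibroblast markers were 38.7 and 71.7 CPM in tumor cells alone, nearly all of it Pdgfra, and 107 and 177 CPM in co-culture. The median shares were multiplied with the level in the other cell type to estimate carried-over counts, and members' calls that change with that estimate are given both ways. Fibroblast markers summed to 74846 and 69497 CPM in NFs alone and to between 23317 and 41536 CPM in co-culture, with 2 of the 8 higher and 4 lower there. Of 4 leukocyte markers, Cd68 and Itgam rose in co-cultured NFs, and the sum went from 3.66 and 6.53 CPM to between 20.6 and 55.1 CPM. Nearly all of it was Cd68, which tumor cells alone also had at 299 and 93.1 CPM, whereas the defining marker Ptprc was at most 0.127 CPM in any library and Adgre1 had 0 counts in all NF libraries. The 4 endothelial markers went from 4.35 and 9.76 CPM to between 8.06 and 24.4 CPM, with 2 up and 1 down. These marker counts were the same after subtraction, and their part in the members' changes was not tested.

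The ligand transcripts belonged to the fibroblasts. All 4 ligands were higher in NFs than in tumor cells, both when grown alone and when sorted from shared gels, and no NF library overlapped with a tumor library for any of them (plot of all members by library).

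**Figure D1:**
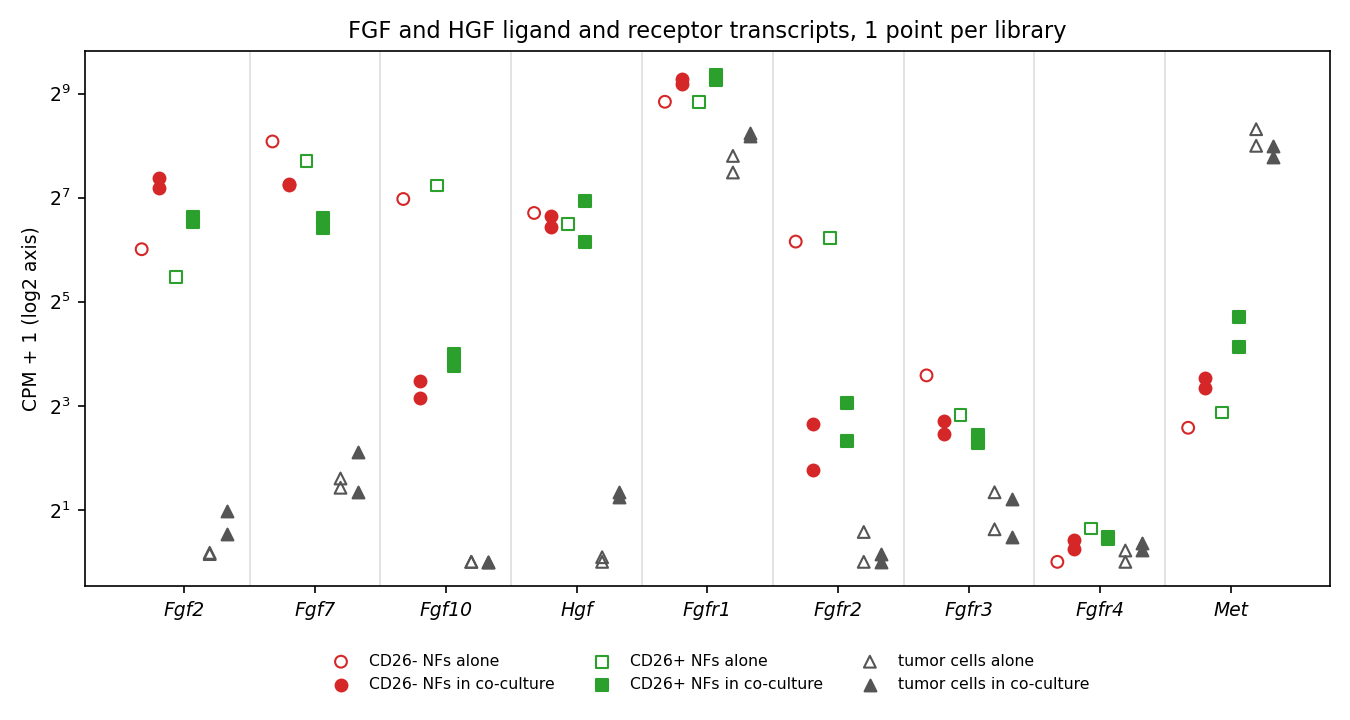
CPM + 1 on a log2 axis for the 9 members, 1 point per library. Open symbols are cells grown alone and filled symbols cells from shared gels (circles, CD26- NFs; squares, CD26+ NFs; triangles, tumor cells). The 4 ligands, Fgfr1, Fgfr2 and Fgfr3 were higher in every NF library than in every tumor library. Met separated them in the opposite direction, and Fgfr1 was high in every library.

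Fgf7 (keratinocyte growth factor; chromosome 2, 126034658 to 126091185, + strand) was the most abundant ligand per length. It had 270 CPM in CD26- and 207 CPM in CD26+ NFs grown alone. In shared gels it had 152 and 151 CPM in CD26- NFs (gels 4 and 5) and 96.4 and 84.5 CPM in CD26+ NFs. Tumor cells had 1.68 and 2.04 CPM alone and 3.34 and 1.54 CPM in co-culture. The lowest NF library was thus far above the highest tumor library, and both NF libraries grown alone were above all 4 co-cultured ones. The log2 fold change of NFs over tumor cells was 7.15 ± 0.27 (SE) alone and 5.83 ± 0.25 in shared gels (edgeR adjusted p = 7.25e-09 and 1.87e-08).

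Fgf10 (chromosome 13, 118669791 to 118792115, + strand) was the ligand with the widest range among NF libraries as a ratio. Grown alone, CD26- NFs had 125 CPM and CD26+ NFs 149 CPM. In shared gels, the values dropped to 10.1 and 7.83 CPM in CD26- NFs and to 15.0 and 12.7 CPM in CD26+ NFs. All 4 tumor libraries had 0 counts. NFs were therefore at least 775-fold higher than tumor cells alone and at least 66.8-fold higher in shared gels, taking 3 counts per tumor library as the limit. The adjusted p from edgeR was 5.82e-09 alone and 7.69e-08 in shared gels.

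Fgf2 (basic FGF; chromosome 3, 37348346 to 37410108, + strand) had 63.4 CPM in CD26- and 43.7 CPM in CD26+ NFs grown alone, and 145, 164, 98.2 and 91.1 CPM in shared gels (CD26- gels 4 and 5, then CD26+ gels 4 and 5). Unlike Fgf10, each co-cultured NF library was above both NF libraries grown alone. In tumor cells the gene had 2 counts in either library alone and 17 and 8 counts in co-culture. Summed over libraries, the NF to tumor ratio was 462 alone (95% counting interval 180 to 1697) and 179 in shared gels (121 to 276), with adjusted p = 3.28e-09 and 2.76e-09 from edgeR. Of its exon bases, 13.2% overlap the genes Gm43439 and Nudt6, whose reads cannot be told apart without strand.

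Hgf (chromosome 5, 16553495 to 16620152, + strand) was the ligand whose NF values overlapped between cultures. NFs had 103 (CD26-) and 88.9 (CD26+) CPM alone and 99.3, 85.7, 122 and 69.6 CPM in shared gels in the same order as for Fgf2. Tumor cells alone had 0 counts (gel 2) and 1 count (gel 3), against 24 and 27 counts (1.36 and 1.54 CPM) in shared gels. NFs exceeded tumor cells 3295-fold alone, with a counting interval of 591 to 130209 that reflects the single tumor count, and 65.2-fold (49.5 to 87.7) in shared gels (edgeR adjusted p = 1.47e-08 and 3.50e-08).

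Divided by exon length (RPKM, CPM per kilobase of exon), the ligand mix of NFs differed between cultures. Fgf7 made up 62.0% and 55.4% of the summed RPKM of the 4 ligands in CD26- and CD26+ NFs alone, and 46.1% to 55.6% in co-cultured NFs. Fgf10 went from 20.3% and 28.3% alone to 2.02% to 5.30% in co-culture. Fgf2 took the opposite course, with 6.98% and 5.60% alone against 22.5% to 28.7% in co-culture. The summed level of the 4 ligands was 134 and 115 RPKM in NFs alone, 51.9 to 84.4 RPKM in co-cultured NFs and at most 1.36 RPKM in tumor cells. No pooled test was run on these sums.

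Receptor transcripts did not form a mirror image of the ligands. Of the tested receptors, Met was higher in tumor cells, while Fgfr1, Fgfr2 and Fgfr3 were higher in the NFs themselves. Of the 8 members that passed the filter on low counts, 7 were called higher in NFs and 1 lower, alone and again in shared gels (all genes called: 63.5% alone, 33.7% higher and 29.8% lower in NFs; 61.3% in shared gels, 33.2% higher and 28.1% lower). Fgf2, Fgf10, Hgf and Fgfr2 had 0 to 9 counts per library in tumor cells alone and entered the test through libraries where they were higher, so this count is not read against all genes.

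**Figure D2:**
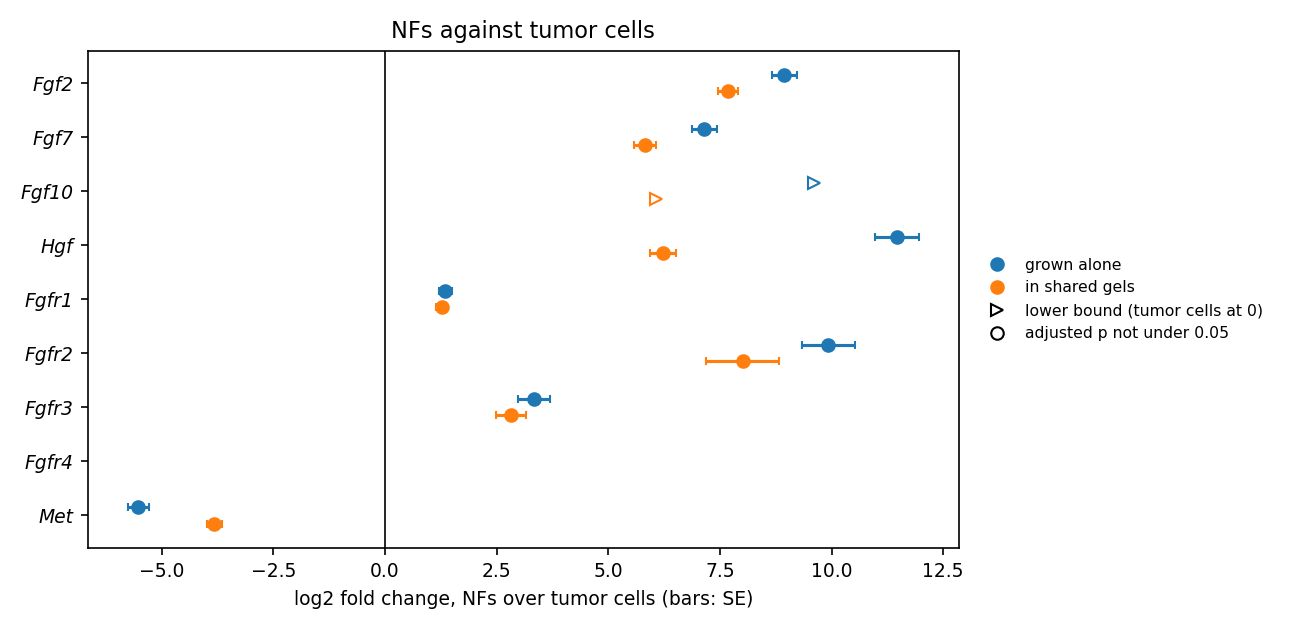
Log2 fold change of NFs over tumor cells grown alone (blue) and in shared gels (orange), with bars for the SE. Positive values are higher in NFs. Fgf10 is drawn as a lower bound at 775-fold and 66.8-fold because all tumor libraries had 0 counts, and Fgfr4 did not pass the filter. Met, at -5.52 and -3.82, was the only member below 0.

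Fgfr1 (chromosome 8, 25513654 to 25575718, + strand), the main FGF receptor of mesenchymal cells, was the most abundant FGF receptor in both cell types. NFs had 458 and 457 CPM alone and 625, 581, 612 and 654 CPM in shared gels. Tumor cells had 222 (gel 2) and 178 (gel 3) CPM alone and 303 and 290 CPM in shared gels. Every NF library was above every tumor library, with a log2 fold change of 1.35 ± 0.14 alone and 1.27 ± 0.13 in shared gels (adjusted p = 1.43e-05 and 1.13e-05, edgeR). Per length, Fgfr1 made up 98.8% to 99.5% of the summed RPKM of the 4 FGF receptors in tumor cells.

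Fgfr2 (chromosome 7, 130162451 to 133123350, - strand), whose IIIb form is the epithelial receptor of Fgf7 and Fgf10, was nearly absent from the tumor cells. They had 9 counts (0.489 CPM) in gel 2, 0 in gel 3, 2 counts in gel 4 and 0 in gel 5, where 0 counts allow up to 0.191 and 0.171 CPM. NFs alone had 70.3 and 74.0 CPM, and co-cultured NFs had 5.27, 2.42, 7.32 and 4.03 CPM. Thus the cells with the ligands Fgf7 and Fgf10 also had the Fgfr2 transcripts, and all 6 NF libraries were above all 4 tumor libraries. The ratio of summed counts was 273 alone (95% counting interval 144 to 598) and 83.1 in shared gels (22.8 to 689, on 2 tumor counts), with edgeR adjusted p = 4.08e-07 and 2.13e-05. In NFs alone Fgfr2 made up 12.4% and 13.2% of FGF receptor RPKM, against 0.390% to 1.12% in co-cultured NFs.

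Fgfr3 (chromosome 5, 33721674 to 33737068, + strand) was low throughout, with 11.0 and 6.11 CPM in NFs alone, 3.85 to 5.52 CPM in co-cultured NFs and 0.396 to 1.53 CPM in tumor cells. It was 3.34 ± 0.35 higher in NFs on the log2 scale alone and 2.83 ± 0.34 in shared gels (adjusted p = 1.24e-05 and 3.49e-05, edgeR). Of its exon bases, 13.9% overlap G630022F23Rik. Fgfr4 (chromosome 13, 55152640 to 55168759, + strand) had 0 to 8 counts in every library, at most 0.561 CPM, and passed the filter in no comparison, so a difference was not detectable at this depth.

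Met (chromosome 6, 17463800 to 17573980, + strand) was the receptor of the tumor cells. They had 318 (gel 2) and 254 (gel 3) CPM alone and 253 (gel 4) and 219 (gel 5) CPM in shared gels. NFs had 4.97 and 6.32 CPM alone and 10.5, 9.15, 25.2 and 16.6 CPM in shared gels. Tumor cells exceeded NFs 51.5-fold alone (95% counting interval 44.3 to 60.3) and 15.7-fold in shared gels (14.6 to 16.8). The log2 fold change of NFs over tumor cells was -5.52 ± 0.24 and -3.82 ± 0.17 (edgeR adjusted p = 1.82e-08 and 2.21e-08). Hgf and Met thus lay on opposite sides, with the ligand transcript in NFs and the receptor transcript in tumor cells, in each gel that held both.

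Co-culture changed 7 of the 8 tested members in NFs, 3 upward and 4 downward, where 48.8% of all genes were called (25.9% up and 22.9% down). This comparison set 2 gels against 1, so culture cannot be told apart from any peculiarity of gel 1. Fgfr2 fell by 3.90 ± 0.26 and Fgf10 fell by 3.57 ± 0.14 on the log2 scale (edgeR adjusted p = 4.01e-06 and 2.07e-07), which is 15.3-fold and 12.1-fold in summed counts per total. Fgf7 and Fgfr3 fell by 0.97 ± 0.13 and 0.81 ± 0.25 (adjusted p = 0.000311 and 0.0212). Fgf2 rose by 1.25 ± 0.14 and Fgfr1 by 0.48 ± 0.13 (adjusted p = 8.28e-05 and 0.0143). Hgf had a log2 fold change of 0.01 ± 0.20 (adjusted p = 0.956). The calls of Fgfr1 without gel 5 (adjusted p = 0.0907) and of Fgfr3 without gel 4 or gel 5 (0.106 and 0.0541) did not pass the threshold.

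The remaining change in NFs was that of Met, at 1.40 ± 0.25 (adjusted p = 0.00146, edgeR). Met reached 4.16% and 4.18% (CD26-, gels 4 and 5) and 9.93% and 7.58% (CD26+) of its level in tumor cells of the same gel. Each share lay between the median epithelial marker and Krt19. The epithelial markers also rose in co-cultured NFs. Between the CD26+ libraries, however, their sum was higher in gel 5 (317 against 172 CPM) and Met in gel 4. Estimated from those markers, tumor cell RNA would give 5.00 and 4.43 CPM of Met in co-cultured CD26- NFs (gels 4 and 5) and 7.35 and 12.0 CPM in CD26+ NFs, beside the measured 10.5, 9.15, 25.2 and 16.6 CPM. Taking these estimates off lowered the log2 fold change to 0.54 with adjusted p = 0.356, so the call was lost. At the lowest marker share of each library, 4.21, 1.81, 5.28 and 6.12 CPM were taken off and the call was kept (0.95, edgeR adjusted p = 0.0292). That marker was Krt7 in CD26- NFs of gel 4 and Cldn7 in the others. Cldn7 had 4 (CD26-, gel 5), 7 (CD26+, gel 4) and 11 (CD26+, gel 5) counts there. The share of Krt19 gave 24.8, 20.1, 32.3 and 38.8 CPM, more than was measured in each library. The call of Met thus depended on the marker used. For Fgf2, Fgf7, Fgf10 and Fgfr2 the same estimate was under 0.1 CPM in every co-cultured NF library.

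**Figure D3:**
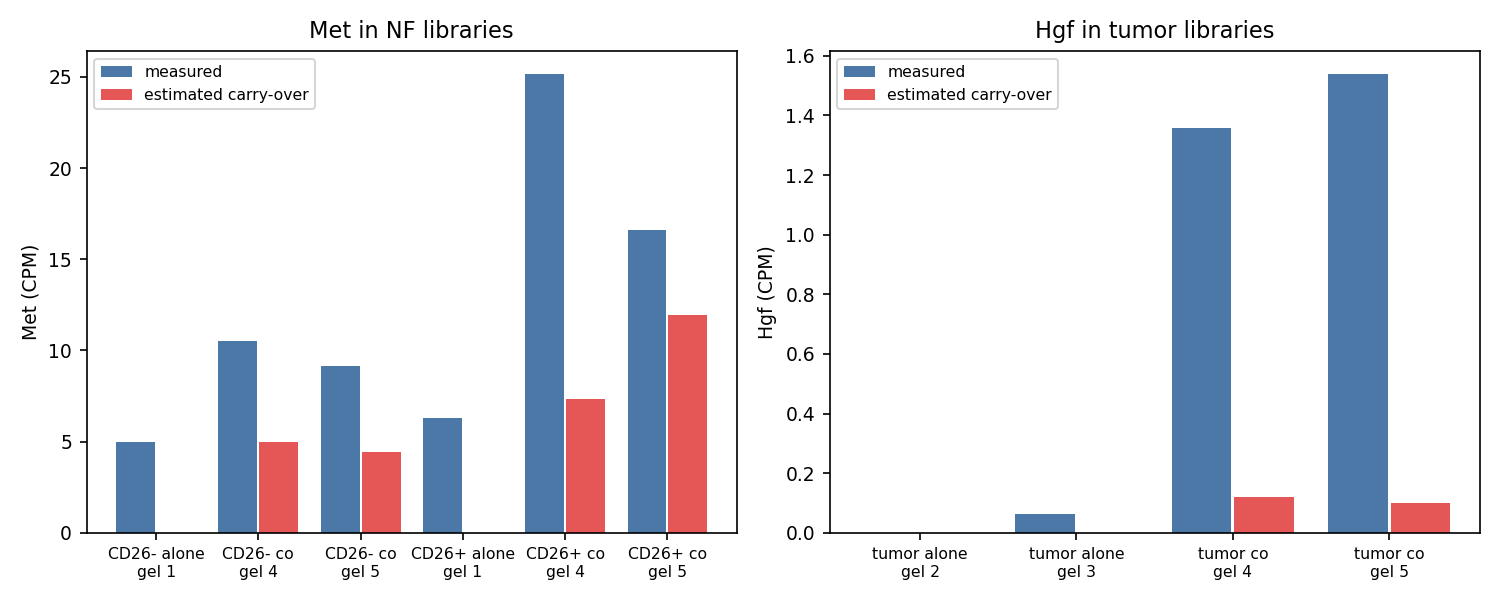
Left, Met in the 6 NF libraries, and right, Hgf in the 4 tumor libraries, in CPM (blue bars), with the amount estimated to come from the other cell type of the same gel (red bars, co-culture only). The red bars reached 4.43 to 12.0 CPM for Met in NFs and 0.101 and 0.120 CPM for Hgf in tumor cells.

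In tumor cells, 5 members passed the filter and 2 were called, both upward (22.3% of all genes, 10.8% up and 11.5% down). Hgf passed the filter only through the co-cultured libraries, so the count is not read against that share. It went from 1 count in 2 libraries to 51 counts in 2 libraries, a ratio of 49.4 with a 95% counting interval of 8.48 to 1990 (edgeR adjusted p = 0.00322). Measured Hgf was 1.36 and 1.54 CPM, against 0.120 and 0.101 CPM estimated from fibroblast markers, and the call remained after subtraction (adjusted p = 0.0044). As a share of the NFs of the same gel, Hgf reached 1.23% and 1.98%. Among the 8 fibroblast markers this share ran from 0% (Thy1) to 0.802% (Col1a1) in gel 4 and from 0.0396% (Thy1) to 0.241% (Col1a1) in gel 5, with Pdgfra apart at 8.94% and 9.92%. Pdgfra was already at 67.7 and 35.6 CPM in tumor cells alone. Without the tumor library of gel 2 or of gel 4, the Hgf call missed the threshold (adjusted p = 0.0624 and 0.0638).

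Fgfr1 was the other call in tumor cells, with 0.55 ± 0.11 on the log2 scale (adjusted p = 0.0108, edgeR). Without the term for the tumor line, neither the Hgf call nor the Fgfr1 call was kept. Both lines had more Fgfr1 in co-culture than alone, but the call did not hold when any tumor library was left out (adjusted p 0.216 to 0.443). Met had -0.30 ± 0.11 (adjusted p = 0.0828), with lower values in co-culture in both lines. Fgf7 had 0.32 ± 0.41 (adjusted p = 0.635) with 1.68 CPM alone and 3.34 CPM in co-culture for 13-MCB-17 and 2.04 and 1.54 CPM for 10-SJK-221. Fgf2 was not tested there, at 4 counts alone and 25 in co-culture (ratio 6.06, 95% counting interval 2.09 to 23.9).

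**Figure D4:**
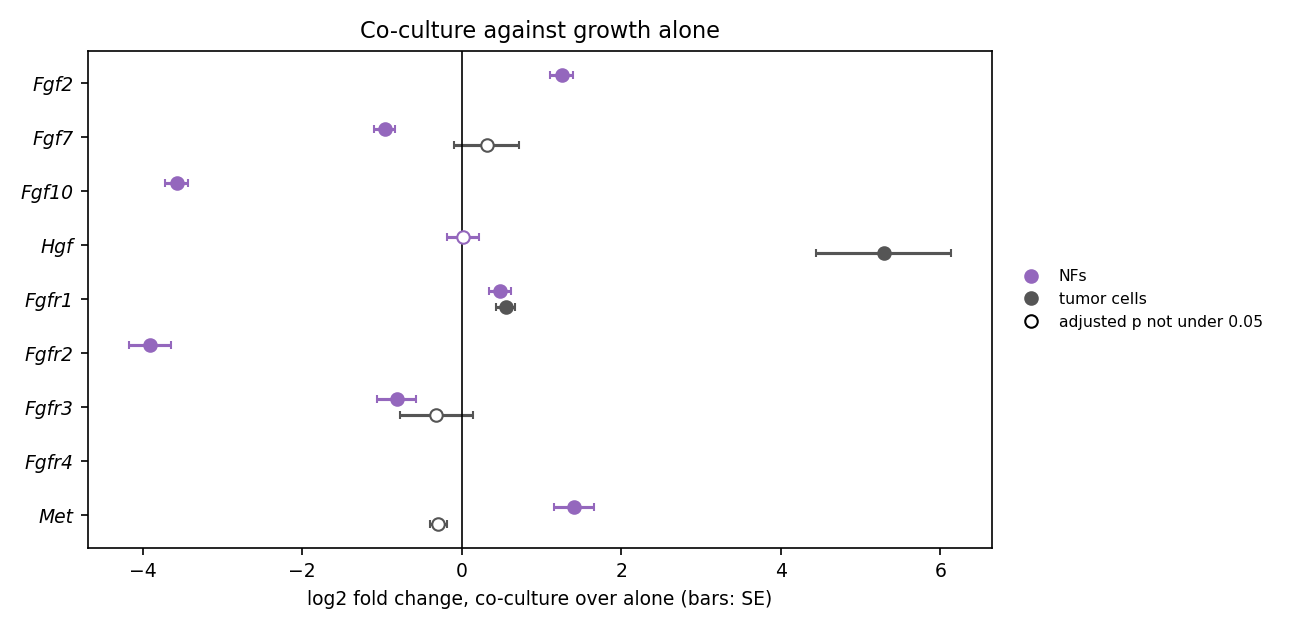
Log2 fold change of co-culture over growth alone in NFs (purple) and tumor cells (gray), with bars for the SE and open points where the adjusted p was not under 0.05. Fgf10 and Fgfr2 lay near -3.57 and -3.90 in NFs, Hgf at 5.29 in tumor cells and 0.01 in NFs, and Fgf2, Fgf10, Fgfr2 and Fgfr4 were not tested in tumor cells.

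Whether NFs and tumor cells differed in their response to each other was tested as the difference of both responses, NFs minus tumor cells. It was called for 3 of 8 members (31.4% of all genes, 16.9% positive and 14.4% negative): Hgf at -5.25 ± 0.88, Fgf7 at -1.32 ± 0.35 and Met at 1.69 ± 0.28 (edgeR adjusted p = 0.00145, 0.0166 and 0.0014). The Hgf value rested on 1 count in tumor cells alone, so its size depends on the fit and is no bound. With carried-over counts subtracted, Met had 0.86 (adjusted p = 0.287) at the median marker share and 1.26 (0.0243) at the lowest, whereas Hgf and Fgf7 had -5.05 and -1.15 (adjusted p = 0.00231 and 0.0407). The Fgf7 call was lost without the tumor library of gel 2 or of gel 4 (-0.57 each, adjusted p = 0.408 and 0.407). For Fgf10 and Fgfr2, tumor libraries were at or near 0 in both cultures, and the difference could not be judged.

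CD26- NFs had more of the ligands Fgf2 and Fgf7 than CD26+ NFs in each of the 3 gels. The CD26+ to CD26- ratio of CPM was 0.689, 0.675 and 0.555 for Fgf2 and 0.766, 0.633 and 0.559 for Fgf7 (gels 1, 4 and 5). These were the members called between subsets, at -0.81 ± 0.13 and -0.78 ± 0.13 (edgeR adjusted p = 0.00802 and 0.011), where 7.53% of all genes were called (3.93% higher and 3.6% lower in CD26+ NFs). Without gel 5, which leaves 1 gel per culture, neither passed (adjusted p = 0.194 and 0.225). Fgf10 leaned the other way, with CD26+ to CD26- ratios of 1.20, 1.49 and 1.62, but at 0.33 ± 0.14 it was not called (adjusted p = 0.185). Met was higher in CD26+ NFs of all 3 gels, at 1.27, 2.39 and 1.82 times, with 0.71 ± 0.22 and adjusted p = 0.0806. Met passed the threshold with all 10 libraries in 1 fit and without gel 1. After subtraction at the median marker share, no member was called higher in CD26+ NFs. Epithelial markers also had a higher sum in CD26+ than in CD26- NFs of both shared gels. The part of carry-over in the Met values was not tested beyond the subtraction. Hgf, Fgfr1, Fgfr2 and Fgfr3 had log2 differences of -0.20, -0.11, 0.21 and -0.63, each with an adjusted p above 0.05.

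**Figure D5:**
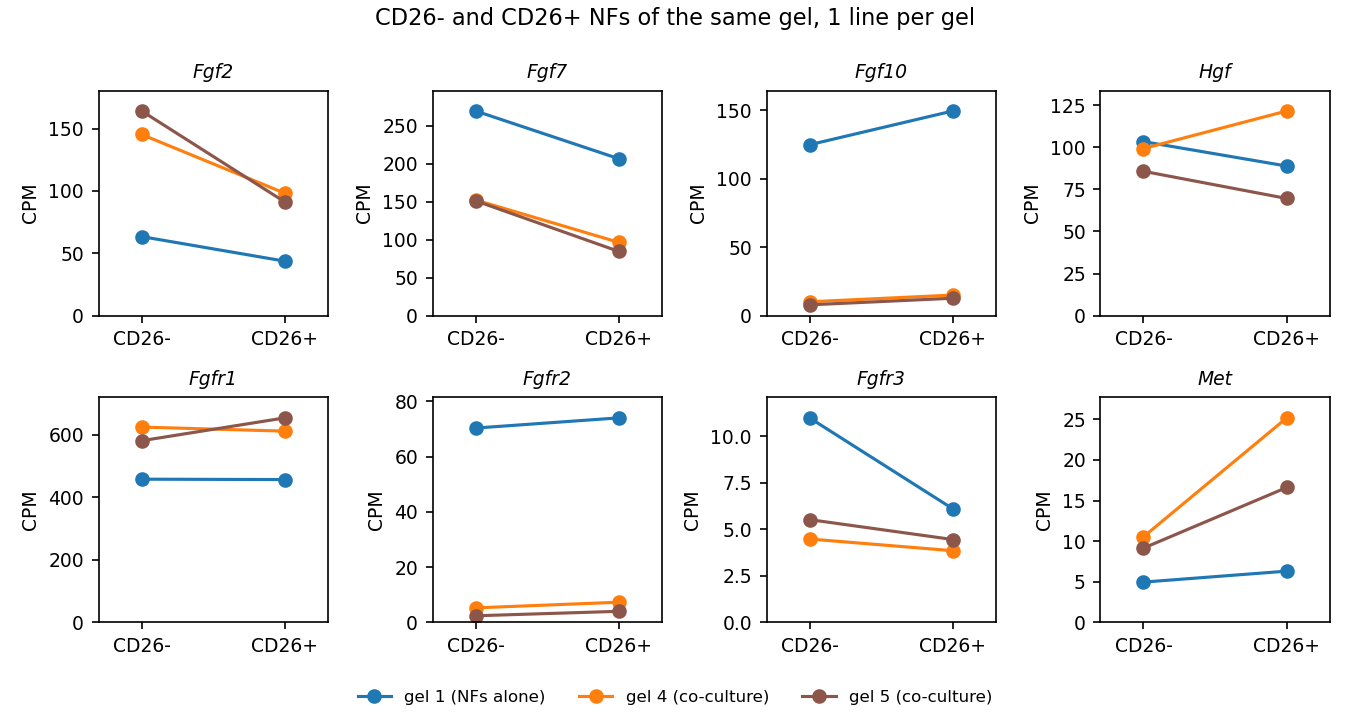
CPM of the 8 members that passed the filter in CD26- and CD26+ NFs, 1 line per gel (blue, gel 1 with NFs alone; orange and brown, gels 4 and 5 with tumor cells), each panel with its own axis from 0. Lines for Fgf2, Fgf7 and Fgfr3 slope downward to CD26+ in all 3 gels, and those of Fgf10, Fgfr2 and Met upward.

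The response to tumor cells was not called different between CD26+ and CD26- NFs for any of the 8 tested members (0.376% of all genes, 0.228% positive and 0.148% negative). An unadjusted p was under 0.05 for 0 members, and DESeq2 also called 0. The largest interactions were Met at 0.71 ± 0.43 and Fgfr3 at 0.55 ± 0.48 (edgeR adjusted p = 0.793 and 0.915).

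Other genes that supply, trap or activate these ligands were read from fixed lists. Among 15 other FGF ligands, 3 passed the filter in NFs, of which Fgf18 and Fgf21 rose in co-culture (all genes 25.9%). Fgf21, a hormone-like FGF known from liver and the stress response, passed the filter only through the co-cultured libraries and rose by 7.32 ± 0.60 (edgeR adjusted p = 1.17e-05), from 0.248 and 0 CPM in NFs alone to 21.3, 15.1, 34.1 and 18.2 CPM in shared gels, while tumor cells had 3.08 to 4.81 CPM. Its co-receptor Klb (beta-Klotho, named here after its values were seen) was at most 0.14 CPM in any library. Fgf18 rose by 1.45 ± 0.24 (adjusted p = 0.00101), from 3.91 and 5.90 CPM to 11.5 to 15.7 CPM. Tumor cells had at most 1.94 CPM of Fgf18.

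Of 16 genes for FGF availability and co-receptors, 14 were tested in NFs, with 2 up and 6 down in co-culture (all genes 25.9% up and 22.9% down), and 1 up and 6 down of 13 tested with carried-over counts subtracted. The gene no longer up was Fgfbp1, which passed the filter only through co-cultured libraries. Sulf1 and Sulf2, extracellular enzymes that trim heparan sulfate, were transcripts of NFs (Sulf1 158 to 282 CPM in NFs and at most 1.43 CPM in tumor cells). Sulf2 fell by 3.62 ± 0.21 in co-cultured NFs (edgeR adjusted p = 1.44e-06), from 244 and 476 CPM to between 12.7 and 56.5 CPM. Fgfbp1, a carrier that frees FGFs from the matrix, was the reverse, with 359 and 219 CPM in separately grown tumor cells, 211 and 107 CPM in co-culture (-0.92 ± 0.11, adjusted p = 0.000954) and at most 0.0621 CPM in NFs alone. In co-cultured NFs, Fgfbp1 had 2.36 to 4.95 CPM, 1.66% to 4.43% of the tumor level, within the range of the epithelial markers. Flrt3, a membrane protein that can bind FGF receptors, fell by 1.68 ± 0.21 in co-cultured tumor cells (adjusted p = 0.00104), from 189 and 148 CPM to 42.4 and 66.0 CPM.

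Around HGF and MET, 2 of 9 list genes were higher in NFs and 6 lower when grown alone (all genes 33.7% higher and 29.8% lower). The median log2 fold change was -3.28 beside 0.06 over all genes. Spint1, Spint2, Mst1 and St14 had 0 to 34 counts per library in NFs alone and entered the test through libraries where they were higher. The count and the median are therefore not read against all genes. The protease inhibitors Spint1 and Spint2, which block HGF activation, and the plasma membrane protease St14 were tumor cell transcripts. Spint2 ranged from 321 to 354 CPM in tumor cells alone and from 253 to 279 CPM in co-culture, against 0.0621 and 1.12 CPM in NFs alone. Mst1r, which encodes the MET relative RON, was instead higher in NFs, with 12.2 and 12.5 CPM alone, 21.8 to 39.2 CPM in co-culture and at most 0.827 CPM in tumor cells. It rose by 1.34 ± 0.19 in co-cultured NFs (edgeR adjusted p = 0.000325). Its ligand gene Mst1 was found in tumor cells, at 19.7 and 5.66 CPM before and 7.64 and 1.60 CPM in co-culture (-1.56 ± 0.22, adjusted p = 0.00169) and at most 0.899 CPM in NFs. In co-cultured NFs, 7 of the 9 list genes rose. Spint1 and Mst1, with at most 2 counts in NFs alone, passed the filter only through co-cultured libraries, so this count is not read against all genes. Hpn and Mst1r, 2 of 8 tested, rose once carried-over counts were subtracted, a share near that of all genes (25.9% before subtraction).

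Esrp1 and Esrp2, the regulators that direct splicing toward the epithelial IIIb form of FGFR2, were called lower in NFs than in tumor cells in both cultures. Esrp1 measured 213 (gel 2), 294 (gel 3), 206 (gel 4) and 270 (gel 5) CPM in tumor cells, so the tumor cells that nearly lacked Fgfr2 transcripts did have its splicing regulator. In NFs it had 0 counts alone and 3.94 to 6.93 CPM in co-culture, 1.92% to 2.57% of the tumor level. Esrp2 fell by 0.90 ± 0.14 in co-cultured tumor cells (edgeR adjusted p = 0.0026).

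Of 12 receptor adaptors, 4 were higher and 2 lower in NFs than in tumor cells alone (median 0.00, all genes called 63.5%), and 2 rose and 1 fell in co-cultured NFs (all genes called 48.8%). The fall was that of Gab1, a docking protein of MET and other receptors, by 1.41 ± 0.15 (edgeR adjusted p = 5.23e-05), from 39.7 and 40.1 CPM to between 12.8 and 17.0 CPM. In tumor cells Plcg1, a phospholipase bound by FGF receptors, rose by 0.58 ± 0.10 (adjusted p = 0.00556) and Frs3 by 0.99 ± 0.28 (adjusted p = 0.0355).

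Feedback inhibitors and transcriptional targets of the ERK pathway, which FGF and HGF receptors share with other receptors, moved in both directions. In co-cultured NFs, 8 of 14 rose and 3 fell (median 0.52, all genes 0.02; 25.9% of all genes rose and 22.9% fell), and 7 rose and 3 fell with carried-over counts subtracted. Dusp5, a phosphatase that acts on ERK, rose by 2.21 ± 0.17 from 20.2 and 17.9 CPM to 77.5 to 99.6 CPM, and Etv4, an ETS factor downstream of FGF signals, rose by 2.15 ± 0.21 from 11.4 and 17.1 CPM to 50.4 to 68.1 CPM (edgeR adjusted p = 7.64e-06 and 3.7e-05). Spred3 and Dusp4 rose by 1.68 ± 0.14 and 1.32 ± 0.13. Spry1, Spry2 and Spry3, inhibitors of receptor signaling from the Sprouty family, fell by 1.25 ± 0.15, 1.42 ± 0.19 and 1.20 ± 0.29 (adjusted p = 0.000127, 0.000241 and 0.00754). In tumor cells, Spry1 and Dusp6 rose by 1.59 ± 0.28 and 0.58 ± 0.10, and Dusp4 fell by 0.75 ± 0.13 (adjusted p = 0.00497, 0.00586 and 0.00501). Of the exon bases of Spry1 and Dusp5, 24.4% and 22.1% overlap other genes. The difference between both responses was called for 7 of the 14 (31.4% of all genes), and for 5 of the 14 with carried-over counts subtracted. Among the 7 were Spry1 at -2.87 ± 0.35, Dusp4 at 2.05 ± 0.20 and Dusp5 at 2.40 ± 0.25 (adjusted p = 0.000213, 5e-05 and 8.08e-05).

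Between the subsets, list genes called were Fgfbp3, Sulf2, Spint2 and Spry2, higher in CD26+ NFs, and Cd44, Cbl and Dusp4, higher in CD26- NFs (all genes called 7.53%). Sulf2 had a CD26+ to CD26- log2 difference of 1.19 ± 0.20 and Fgfbp3 of 1.60 ± 0.27 (edgeR adjusted p = 0.0118 and 0.0114). Cd44, whose product can act as a MET co-receptor, had -0.77 ± 0.14 (adjusted p = 0.0132). With carried-over counts subtracted, the Dusp4 call was lost (-0.46, edgeR adjusted p = 0.0502). Spint2 had 5.64 and 5.99 CPM in co-cultured CD26- NFs (gels 4 and 5) and 12.8 and 16.1 CPM in CD26+ NFs, beside estimated carry-over of 5.49, 5.11, 8.08 and 13.8 CPM in the same order. Its call remained after subtraction at the median marker share (edgeR adjusted p = 0.0432), the only share used between subsets. In co-cultured CD26+ NFs, Spint2 had 4.61% (gel 4) and 6.34% (gel 5) of the tumor level, within the range of the epithelial markers there. Grown alone in gel 1, CD26- NFs had 1 count of Spint2 and CD26+ NFs 16.

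As a description, the genes whose log2(CPM + 1) pattern over the 10 libraries was most like that of each member were ranked by Pearson r. Fgf2 was most like Papss2 and Loxl2 (r = 0.998 each), Fgf7 like Kif26b, Apba1 and Bnc2 (0.997 each), and Fgf10 like Zfp521, Gas6 and Slc27a6 (0.998, 0.998 and 0.997). Hgf was nearest to Ccdc8, Thbs2 and Col5a2 (0.995, 0.995 and 0.994). Fgfr1 was nearest to H13, Cdr2l and Prkar1b (0.992, 0.992 and 0.984), Fgfr2 to Il16, Ddit4l and Arxes2 (0.994, 0.993 and 0.991), and Fgfr3 to Hivep3, Phactr1 and Csgalnact1 (0.989, 0.980 and 0.977). Met was most like Pstpip1, Epha2 and Cblc (0.997, 0.997 and 0.996). All of these r values share the same 10 libraries and their split into NFs and tumor cells.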

How the data were processed

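RNA sequencing was available for 10 libraries in 6 groups. Per the labels and the study's methods, stranded mRNA libraries were sequenced on HiSeq or NovaSeq instruments, and the submitters' processing notes name HISAT2 2.2.1 and GRCm38. How reads were counted, whether by strand and with which annotation, is not given in the sources used here. The authors deposited 1 table of unnormalized counts. A row without gene ID held 0 counts and was left out. Of the gene IDs, 55140 were in GENCODE M21 (GRCm38), which gave positions and the exon lengths for RPKM.

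Counts were fitted with edgeR 4.0.16 (quasi-likelihood F test, TMM, filterByExpr) in R 4.3.3, with Benjamini-Hochberg adjustment over all genes tested and a threshold of 0.05. NFs against tumor cells, and the difference between their responses, came from a fit of all 10 libraries with terms for origin and for co-culture in NFs and in tumor cells. Co-culture and subset effects in NFs used the 6 NF libraries (culture and subset), the subset interaction their 4 groups, and tumor cells their 4 libraries (line and culture). Tumor replicates are 2 lines, and nothing states that NF gels came from separate mice, so p-values measure only the spread between these samples. Fitted folds were tested on simulated data with 200 changed genes.

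Each comparison was repeated with RLE scaling, with genes of 1 count kept, with DESeq2 1.42.0, an added absolute log2 fold change above 2, and libraries or gels left out. All libraries in 1 fit were used as an alternative where the comparison had fewer, no line term in tumor cells, and gel as a replicate block in shared gels, between subsets and for their interaction. Chosen after seeing the data, carried-over counts estimated from the median marker share were subtracted in all comparisons but that of cells grown alone. For co-culture in NFs and the response difference, the lowest and highest epithelial marker shares were also used. These were applied to NF libraries only, while tumor libraries kept the median fibroblast marker share. CD26- NFs, CD26+ NFs and tumor cells of gels 4 and 5 came from the same gel per the labels. Their deviations from group means correlated at 0.232 (between NF subsets), 0.174 and 0.0938 (each subset with tumor cells).

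Members and lists were chosen with earlier results of these data known. All members are named, with Epcam, Col1a1 and Dpp4 as checks. Of each list, the 3 genes with the smallest adjusted p at a mean of at least 1 CPM could be named for NFs against tumor cells and for co-culture effects, and every called gene in the other comparisons. A gene named under 1 comparison may be described in the others. Klb and the single markers Pdgfra, Thy1, Krt7 and Cldn7 were added after their values were seen. Intervals of count ratios are exact (Clopper-Pearson on the split of counts) and, as reads carry no molecular identifiers, reflect counting error alone. A further allele of the tumor model and a gene under the naming rule are not reported here.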

Additional observations from a re-analysis of the deposited data

Results flagged for a closer look

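For 3 of 8 tested members, the response to co-culture differed between NFs and tumor cells by the test of that difference (edgeR, NFs minus tumor cells, log2 scale). Over all genes, 31.4% were called. Hgf had -5.25, with 1 count in the 2 tumor libraries grown alone and 51 in co-culture beside overlapping values in NFs, so the size of this difference rests on a single count. Fgf7 had -1.32, and it fell in NFs. That call was lost without the tumor library of gel 2 or of gel 4. Met had 1.69, and this is the value that dropped to 0.86 (adjusted p = 0.287) once carried-over counts were subtracted at the median marker share, but was called at the lowest (1.26, adjusted p = 0.0243). The lowest share came from Cldn7, with 4 to 11 counts, in co-cultured NF libraries other than CD26- of gel 4. The part of carried-over RNA in the Met value was not tested beyond this subtraction.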

How the results depend on the processing

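Of 53 member results recomputed 626 times, 586 values kept direction and side of the threshold, 26 missed it, 2 passed it anew and 12 changed sign. With an absolute log2 fold change above 2 required as well, called members numbered 2 of 8 for co-culture in NFs (Fgf10 and Fgfr2), 1 in tumor cells (Hgf), 1 for the difference between these responses (Hgf) and 0 between subsets. Leaving out libraries or gels gave 0 to 3 called members between subsets (0 without gel 5) and 0 to 2 for co-culture in tumor cells (0 without the tumor library of gel 2 or of gel 4; these fits tested 8 members where the 4-library fit tested 5, and of those 5 Hgf alone was called), and dropping the tumor line term gave 0. With carry-over taken at the highest marker share, which exceeds all measured Met in co-cultured NFs, Met had -9.2821 in NFs and -9.1895 in the response difference, Fgfr1 had 0.0909 in the latter, and the calls of Fgfr3 in NFs (adjusted p = 0.108) and Fgf7 in the response difference (0.0999) were lost. The other sign changes concerned uncalled values. Over the libraries left out, Fgf7 in tumor cells ranged from -0.4035 to 0.9411, Fgfr1 in the response difference from -0.2225 to 0.0743, Hgf in NFs from -0.2292 to 0.2046, and the subset interactions of Fgfr1, Fgfr2 and Hgf from -0.0578 to 0.1128, -0.0016 to 1.071 and -0.1998 to 0.5318. Hgf in NFs was -0.0047 without a filter. Met between subsets passed with all 10 libraries in 1 fit (adjusted p = 0.0357) and without gel 1 (0.0327). Where the remaining tumor libraries had 0 counts, the fit gave no usable p for Fgf10, Fgfr2 or Hgf (adjusted p = 1). Over all genes, NFs against tumor cells had 10082 calls alone (4692 with the fold limit, down to 6203 with a library left out) and 9736 in shared gels (3939 and 4955), the response difference 4979 (1836 and 2544) and co-culture in NFs 7325 (2047 with the fold limit). Calls between subsets numbered 1130, 192 with the fold limit and 17 without gel 5. For co-culture in tumor cells they numbered 2942, with 418 under the fold limit, 216 to 708 with a library left out, 1574 with DESeq2, 1511 with all libraries in 1 fit and 0 without the line term. For the subset interaction they numbered 61, with 0 to 7 when a library was left out, 18 without a filter, 27 with carry-over subtracted, 31 with all libraries and 97 with DESeq2. With gel as a replicate block, the members called stayed at 8 in shared gels, 2 between subsets and 0 for the interaction, and the interaction had 395 calls over all genes. The cause of these shifts was not tested. Depth limits Fgfr4 in every library, and Fgf2, Fgf10, Fgfr2 and Hgf in tumor cells.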
